A study of Sus scrofa with 8 samples.

Results

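PAX3 and PAX7 were followed through the muscle, neural tube and neural crest cells of pig embryos, as the 2 rows of these genes among the 21301 genes measured in all 8 single-cell RNA libraries. PAX3 (ENSSSCG00000028418) lies on the minus strand of chromosome 15 of the Sscrofa11.1 build at 124093803 to 124193041, and PAX7 (ENSSSCG00000034627) on the plus strand of chromosome 6 at 77160827 to 77268626. In the RefSeq annotation of that build each gene has 3 transcripts, the longest with 10 exons for PAX3 and 9 for PAX7. The libraries covered embryonic days 16, 18 and 21 (E16, E18 and E21; somites) and 28 (E28; myotome), and every stage gave 1 library of Tibetan embryos (ZZ) and 1 of Duroc by Tibetan crossbred embryos (DZ). The labels name no treatment or targeted allele, and each library pooled 5 embryos of a sow, so that neither an embryo nor a litter stood as a replicate within a library. The libraries of both breeds served as the samples of a stage, and p-values measure the spread between libraries. Tissue and stage cannot be told apart at E28.

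PAX3 and PAX7 encode closely related transcription factors with a paired domain and a homeodomain. In the somite both mark the dermomyotome, the epithelial sheet from which skeletal muscle progenitors leave, and PAX7 goes on to mark the stem cells of muscle. In the neural tube both are known as genes of the dorsal side, and PAX3 is also used at the neural plate border, from which the neural crest arises.

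Cells were placed in classes by genes other than the members. Muscle cells held at least 1 UMI (a counted RNA molecule) of MYF5, a myogenic determination factor, or of MEOX1, a somite homeobox gene. Neural tube cells held PAX6 or HES5, both genes of neural progenitors, and crest cells held SOX10, the neural crest factor. Of 74147 cells kept, 12833 were muscle cells, 5840 neural tube cells and 2077 crest cells, while 518 cells met more than 1 class and were set aside. Between 373 and 3506 muscle cells, and between 112 and 572 crest cells, came from each library. Neural tube cells numbered from 428 to 1427 in the E16, E18 and E21 libraries but 13 in E28-ZZ and 30 in E28-DZ, where none held PAX6. The E28-ZZ neural tube cells were too few for a sum and enter no test.

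Markers that the classes did not use were read as a check of the labels. DMRT2, a dermomyotome factor, averaged 29.1 ± 9.51 counts per 1000000 UMIs (CPM; SD, n = 8 libraries) in muscle cells against 0.36 ± 0.46 in neural tube cells (n = 7). FABP7, a radial glia gene, averaged 136 ± 171 CPM in neural tube cells and 11.05 ± 7.91 in muscle cells, whereas the neural gene SOX3 stood at 0.66 ± 0.54 CPM even in neural tube cells, and SOX1 and SOX2 were not in the gene list used here. The sum of all measured neural tube markers did not separate these classes, with a median of 514 CPM in muscle and 463 in neural tube cells. TFAP2B, a neural crest factor, averaged 142.5 ± 60.0 CPM in crest cells and 2.25 ± 1.15 in muscle cells. FOXD3, of early crest, was near 0 in all 3 classes, and ERBB3 was high in every class, from 790 ± 148.7 CPM in endothelial to 1211 ± 174 in crest cells, and marked none. The muscle class was mixed: cells with MEOX1 and no MYF5, MYOD1 or MYOG held 73.3 CPM of PAX1, a gene of the sclerotome, which forms vertebrae and ribs, against 12.7 CPM in cells with MYF5 and neither MYOD1 nor MYOG. The label muscle therefore does not describe all of the MEOX1-only cells, and results are given by state as well. The label neural tube is uncertain for E28-DZ, whose sum enters the means over 7 libraries and the contrasts between classes. Its neuron markers summed to 3028 CPM and its fibroblast markers to 1129, against class medians of 95.5 and 211.

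The libraries held from 39852689 to 57568895 UMIs over the cells kept, with a median from 3405 UMIs per cell in E28-DZ to 6161 in E16-ZZ, lower in each E21 and E28 library than in any E16 or E18 library. In E16-ZZ 39.2% of barcodes exceeded the mitochondrial limit of 10%, against 1.05% to 9.15% in the other 7 libraries. Both E16 libraries were counted with Cell Ranger 3.1.0 and the other 6 with 3.0.2, and stage and version cannot be told apart there. In all 1001 barcode sequences occurred in more than 1 library. Intervals of single libraries cover counting error only.

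The first question was where the members were transcribed. Over the libraries PAX3 averaged 48.2 ± 20.9 CPM in muscle cells (SD, n = 8), 54.1 ± 33.8 in neural tube cells (n = 7) and 50.7 ± 24.3 in crest cells (n = 8), means that differed by less than the SD. The SD includes the differences between stages, and within libraries the order of muscle and neural tube turned. PAX3 was higher in muscle than in neural tube cells in each E16 and E18 library, as in E18-DZ (83.7 against 39.3 CPM). It was lower in both E21 libraries, as in E21-ZZ (50.5 against 116). PAX7 averaged 40.7 ± 35.3 CPM in muscle cells, 18.2 ± 22.1 in neural tube cells and 4.59 ± 2.75 in crest cells. Endothelial cells, which should lack both genes, held 1.17 ± 0.78 CPM of PAX3 and 0.87 ± 1.05 of PAX7. Epithelial cells held 5.11 ± 4.56 and 3.17 ± 3.38 CPM (n = 7), but at E16 and E18 they stood above the endothelial cells of their own library, among these stages most for PAX3 in E18-DZ (11.6 against 1.92 CPM) and for PAX7 in E16-DZ (3.62 against 0.49), and are no clean background. Later sums held few UMIs, as in E28-ZZ with 2 PAX7 UMIs in 30 epithelial cells and 3 in 119 endothelial cells. Crest PAX3 lay above both classes in every library. Crest PAX7 was low and did not stand in 1 relation to them: it was 10.0 CPM in E18-ZZ (95% Poisson interval 6.13 to 15.5) against 1.80 in epithelial and 0.81 in endothelial cells, and 0.98 CPM in E21-ZZ (0.12 to 3.53), 2 UMIs, against 3.66 and 0.

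**Figure D1:**
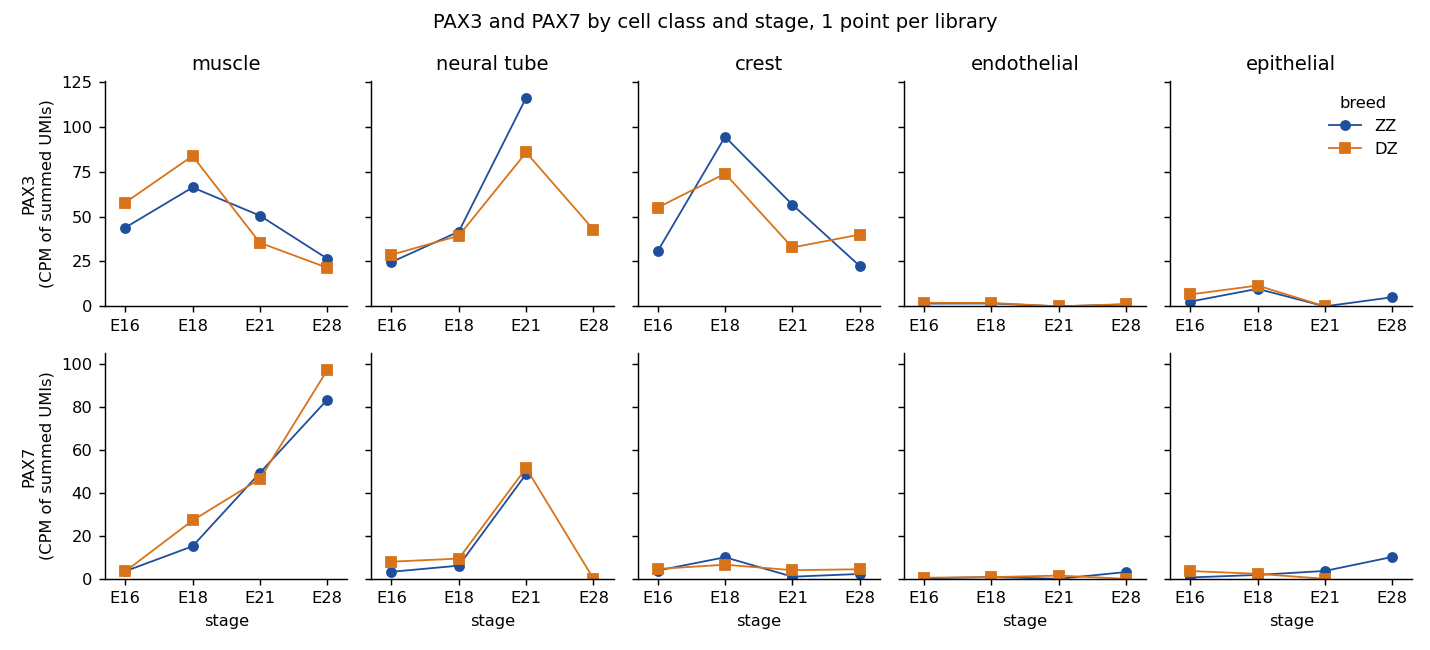
PAX3 (top) and PAX7 (bottom) in CPM of summed UMIs in muscle, neural tube and crest cells by library, with endothelial and epithelial cells, plotted against embryonic stage. PAX7 in muscle ran from 3.43 CPM in E16-DZ to 97.2 in E28-DZ, PAX3 in neural tube cells was highest at E21, and crest PAX7 stayed between 0.98 and 10.0 CPM.

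Summed counts of the 3 classes were compared within libraries by edgeR's quasi-likelihood test over all genes, with Benjamini-Hochberg adjustment. PAX3 did not pass the adjusted threshold of 0.05 in any of the 3 contrasts, with log2 fold changes of 0.15 for muscle minus neural tube (95% interval -0.46 to 0.76), 0.24 for crest minus neural tube (-0.41 to 0.88) and 0.08 for crest minus muscle (-0.50 to 0.67). Each interval still allows a difference of more than 0.6 on the log2 scale. Muscle minus neural tube also averages over stages at which the PAX3 order of these classes turned, so it does not show equal levels at a given stage. PAX7 was lower in crest than in muscle cells (-2.58 ± 0.53, SE; edgeR adjusted p = 0.00162), and lower in crest than in neural tube cells (-1.92 ± 0.59; adjusted p = 0.0219). PAX7 failed the filter on low counts in the fits of crest cells alone and passed it here through the muscle and neural tube sums, so that these folds rest on the 69 PAX7 UMIs of crest cells, although without the filter they were -2.59 and -1.93, both still called. The call against neural tube was lost without E21-ZZ (-1.40) and without E21-DZ (-1.57), under DESeq2 (-1.30) and at a mitochondrial limit of 5% (-1.25). Muscle minus neural tube gave 0.66 ± 0.43 for PAX7 (adjusted p = 0.28; interval -0.25 to 1.57). Of all genes tested, 28.3% were called between muscle and neural tube, 26.8% between crest and neural tube and 20.8% between crest and muscle.

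The makeup of a class bears on these contrasts. With cells that held MYF5 but neither MYOD1 nor MYOG in place of all muscle cells, muscle exceeded neural tube by 0.88 for PAX3 (edgeR adjusted p = 0.0273) and by 1.90 for PAX7 (adjusted p = 0.00283), whereas MEOX1-only cells gave -0.45 and -0.44 and passed for neither. With MEOX1-only cells the lower PAX7 of crest than of muscle cells was also no longer called (-1.20, adjusted p = 0.126). With dorsal cells in place of all neural tube cells, PAX3 was lower in muscle (-0.98, adjusted p = 0.00187) and in crest (-0.89, adjusted p = 0.00516) than in neural tube. These alternatives were added after the data were seen.

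Genes known to act beside or below the members were read in the same fits. In muscle against neural tube cells 6 of 9 tested genes of the dermomyotome and of muscle precursors were higher and 1 lower, with a median log2 fold change of 2.51 against 0.01 for all genes. DMRT2 led with 5.72 ± 0.38, followed by MSC, a repressor in muscle precursors (4.22 ± 0.38), MEOX2 (4.10 ± 0.34) and TCF15 (3.83 ± 0.42), while the chemokine receptor gene CXCR4 was lower (-2.88 ± 0.57). EYA1 (2.74 ± 0.31) and EYA2 (1.21 ± 0.35), coactivator genes known to act beside PAX3 in the somite, were higher in muscle. Of the genes known from neural crest, 8 of 9 tested were higher in crest than in muscle cells and SNAI2 was lower, with a list median of 2.25 against -0.02 for all genes. They were led by EDNRB (6.39 ± 0.63), TFAP2A (6.15 ± 0.42), TFAP2B (6.05 ± 0.37) and MITF (2.25 ± 0.37), the melanocyte factor that PAX3 is known to activate, and included the melanin synthesis gene DCT (2.25 ± 0.38). Of 9 genes for proteins that bind PAX3 or PAX7 or modify chromatin with them, TLE4, a corepressor, was lower in crest than in muscle cells (-1.20 ± 0.13), and the other 8 did not pass. These lists were compiled with earlier results of these data known, and their counts are a description.

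Stage was examined next in muscle cells. PAX3 stood at 43.8 CPM (ZZ; 95% Poisson interval 36.1 to 52.7) and 57.8 CPM (DZ) at E16, then 66.2 and 83.7 at E18, then 50.5 and 35.4 at E21 and lastly 26.6 and 21.5 at E28 (19.3 to 23.9 for the last). PAX7 stood at 3.52 (ZZ; 1.61 to 6.69) and 3.43 (DZ) CPM at E16, then 15.2 and 27.2 at E18, then 49.3 and 46.5 at E21 and lastly 83.4 and 97.2 at E28 (92.5 to 102 for the last). PAX3 was thus highest at E18 and lowest at E28, while the PAX7 ranges of the 4 stages did not overlap and were ordered by age. The share of all genes ordered in this way was not counted. PAX7 in the whole class rose at each step, by 2.44 ± 0.31 from E16 to E18 (edgeR adjusted p = 0.0132), by 1.25 ± 0.20 from E18 to E21 (adjusted p = 0.00404) and by 0.84 ± 0.19 from E21 to E28 (adjusted p = 0.0406), though not at each step within the MYF5 or MEOX1-only cells taken alone. PAX3 fell from E18 to E21 (-0.78 ± 0.21, adjusted p = 0.0360). For PAX3 the steps from E16 to E18 (0.39 ± 0.22, adjusted p = 0.385) and from E21 to E28 (-0.90 ± 0.21, adjusted p = 0.0516) did not pass. With 1 library left out, the PAX3 step from E16 to E18 ran from 0.14 to 0.68. Among all genes 0.745% were called from E16 to E18, 13.7% from E18 to E21 and 3.77% from E21 to E28.

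These calls rest on 2 libraries a stage, and none of them held under every alternative. Leaving out E16-ZZ (2.60), the library with many mitochondrial barcodes, E16-DZ (2.23) or E18-DZ (2.02) ended the first PAX7 call, leaving out E18-ZZ ended the second (0.89), and 5 of 8 omissions ended the third (0.65 to 1.04). The PAX3 fall from E18 to E21 was lost without E18-ZZ (-1.03), E18-DZ (-0.54) or E21-DZ (-0.54). A mitochondrial limit of 5% ended the PAX7 calls from E16 to E18 (2.39) and from E21 to E28 (0.80) and the PAX3 fall (-0.53), and a fit with no breed term ended the PAX7 call from E21 to E28 (0.84). The PAX3 step from E21 to E28 passed in 8 of 20 alternatives, among them DESeq2 (-0.89), no filter on low counts (-0.88) and omission of E28-ZZ (-1.13). The 93 genes called from E16 to E18 became 5 to 401 when 1 library was left out, and the 1712 from E18 to E21 became 375 to 2173. In each omission the lone library of a stage is assumed to vary like the other stages.

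Because both genes were counted in the same cells, their ratio is free of cell number and depth, though the 2 genes may be captured with unequal efficiency. In muscle cells PAX7 made up 7.44% (ZZ; 95% exact binomial interval 3.46 to 13.7) and 5.60% (DZ) of the UMIs of both genes at E16, then 18.6% and 24.5% at E18, then 49.4% and 56.8% at E21 and lastly 75.8% and 81.9% at E28 (80.1 to 83.6 for the last). The 2 genes were thus counted about equally at E21, and PAX7 prevailed at E28. In neural tube cells the share ran from 11.7% to 37.6% in the E16, E18 and E21 libraries, highest in both E21 libraries, and in crest cells from 1.69% to 11.11%.

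**Figure D2:**
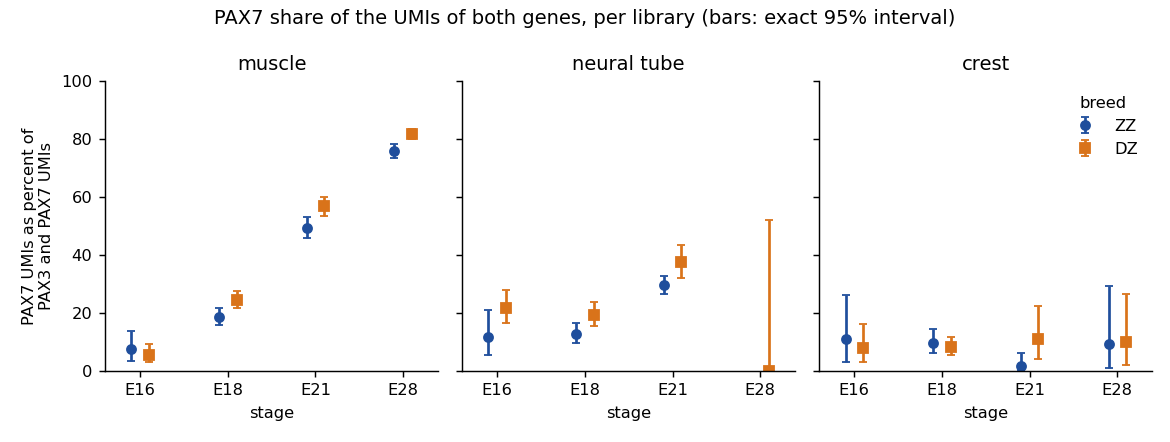
Percent of the UMIs of PAX3 and PAX7 together that were PAX7, by library and class, with 95% exact binomial intervals, against embryonic stage. In muscle cells the share ran from 5.60% to 81.9%, and in crest cells it stayed at or below 11.11%.

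The share of cells with a UMI was compared at a fixed depth of 2000 UMIs per cell, with cells below that depth (at most 98 muscle cells in a library) left out. PAX7 was found in 0.75% (ZZ) and 0.60% (DZ) of muscle cells at E16, then 2.79% and 3.87% at E18, then 8.79% and 8.07% at E21 and lastly 13.5% and 15.5% at E28. Late libraries (E21 and E28) exceeded early ones (E16 and E18) by 9.47 percentage points (exact two-sided permutation test over 4 against 4 libraries, p = 0.0286, the smallest this design can give, 0.0438 adjusted over 7 tests). The same difference was 20.7 points in MYF5 cells (exact permutation p = 0.0286) and 0.89 points in MEOX1-only cells (exact permutation p = 0.286), where the call was lost. For PAX3 the early mean was 9.98% ± 2.10 and the late mean 5.63% ± 2.05, a difference of -4.35 points that did not pass (exact permutation p = 0.0571, adjusted 0.0667). Unthinned it was -11.2 points (exact permutation p = 0.0286), but late libraries were shallower, which lowers unthinned detection. By the same permutation PAX3 gave -2.61 points in MYF5 cells (p = 0.514) and -6.75 in MEOX1-only cells (p = 0.0286). At a mitochondrial limit of 5% it gave -2.10 (exact permutation p = 0.286). Without thinning PAX3 was found in 7.70% of muscle cells (E28-DZ) to 25.4% (E18-ZZ), PAX7 in 1.81% (E16-DZ) to 26.7% (E28-DZ). In endothelial cells 0% to 1.43% held a UMI of PAX3 and 0% to 2.52% a UMI of PAX7, at median depths of 5074 to 9234 UMIs against 4056 to 6888 in muscle cells.

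Marker sums and the share of MYF5 cells in the muscle class moved along with stage. The summed level of 4 fibroblast markers (COL1A1, COL3A1, LUM and DCN) was 690 (ZZ) and 296 (DZ) CPM at E16, then 941 and 807 at E18, then 1471 and 1500 at E21 and lastly 2822 and 2097 at E28, and in MYF5 cells it ran from 286 to 542 at E16 and from 1638 to 2182 at E28. In MEOX1-only cells it was 704 and 295 CPM at E16 and 4206 and 4051 at E28, while their muscle markers (DES, DMRT2, MSC and TCF15, since MYOD1 and MYOG are absent by the choice of these cells) summed to 151.2 and 159 CPM at E16 and to 88.0 and 132 at E28. The sum of the neuron markers, mostly STMN2, was 11.7 to 29.2 CPM at E16 and E18 and 300.5 to 681 CPM at E21 and E28. Wide ranges over libraries were not particular to the muscle class. The neuron sum ran from 7.92 to 570 CPM in endothelial cells, and the fibroblast sum from 803 to 3964 CPM in cells of no class. The part of these markers in the stage changes of PAX3 and PAX7 was not tested. Cells with MYF5 were 5.25% to 7.77% of muscle cells at E16, 23.2% to 23.5% at E18, 33.7% to 43.5% at E21 and 46.9% to 60.6% at E28. Cells were therefore also put into 4 exclusive states by the myogenic factors they held. There were 1559 MYOG cells, which are differentiating, and 1621 cells with MYOD1 and no MYOG. Another 3292 cells had MYF5 and neither of these, and 7484 had MEOX1 and none of the 3. Given the markers of the MEOX1-only cells, their contrast with MYF5 cells cannot be read as a step of muscle differentiation alone. The MYOD1 and MYOG states also took in cells without MYF5 or MEOX1, and cells with a neural tube or crest gene were set aside.

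Both genes were higher in MYF5 than in MEOX1-only cells and lower in MYOG than in MYOD1 cells. In MYF5 cells PAX3 stood at 63.8 (ZZ) and 44.0 (DZ) CPM at E16, then 126 and 137 at E18, then 94.4 and 85.6 at E21 and lastly 55.7 and 43.1 at E28. In MEOX1-only cells it stood at 42.0 and 58.6, then 48.1 and 66.6, then 29.9 and 12.2, and finally 5.23 and 2.56 CPM. PAX3 was thus lowest at E28 in MEOX1-only cells, whereas in MYF5 cells the E16 and E28 ranges overlapped, and it was lower in MEOX1-only than in MYF5 cells in 7 of 8 libraries. PAX7 in MYF5 cells stood at 0 and 16.5 CPM at E16 (29 and 32 cells), then 33.9 and 42.3 at E18, then 103 and 114 at E21 and lastly 171 and 185 at E28, and in MEOX1-only cells at 3.85 and 2.78, 9.67 and 22.5, 17.3 and 13.9, and 12.1 and 8.87. PAX7 in MYOD1 cells stood at 57.5 and 58.0 CPM at E21 and at 139 and 135 at E28, and in MYOG cells at 27.5 and 34.1 and at 49.6 and 32.2. The MEOX1-only cells of E28 did not share the high PAX7 of the other states.

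**Figure D3:**
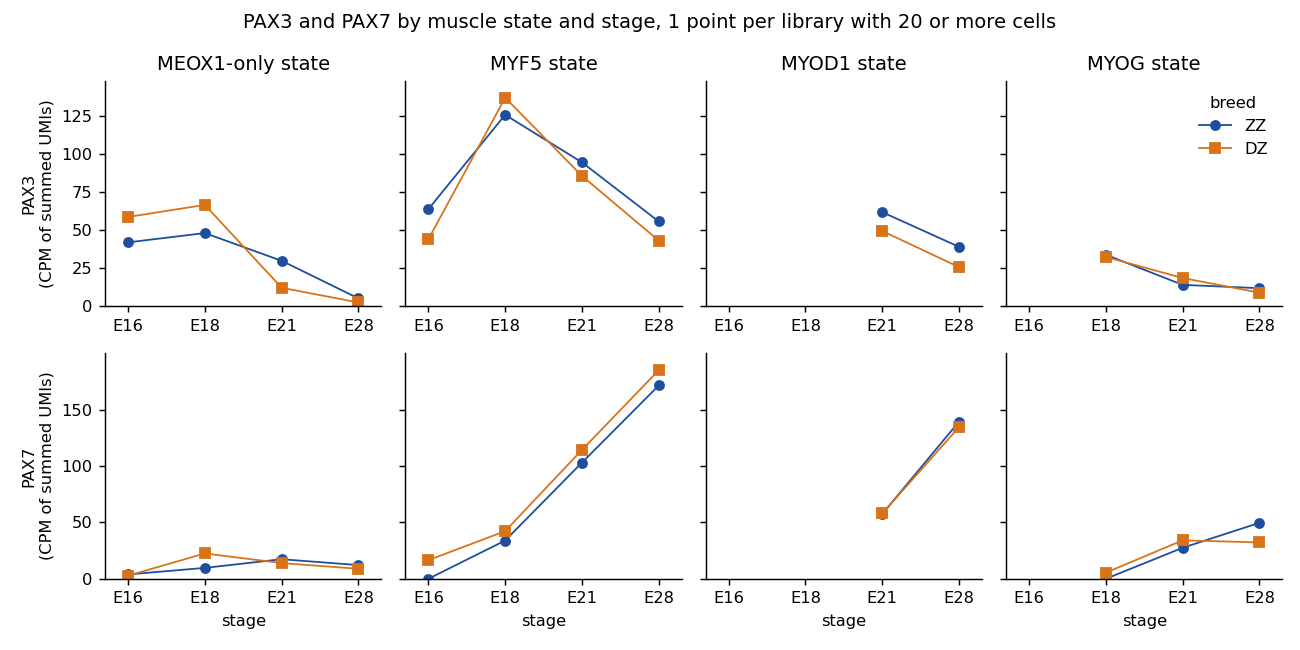
PAX3 (top) and PAX7 (bottom) in CPM in the MEOX1-only, MYF5, MYOD1 and MYOG states by library, for states with at least 20 cells, against embryonic stage. PAX7 reached 185 CPM in the MYF5 cells of E28-DZ and stayed at or below 22.5 CPM in MEOX1-only cells.

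Tested within libraries, MYF5 cells exceeded MEOX1-only cells for PAX3 by 1.81 ± 0.28 (edgeR adjusted p = 7.7e-05) and for PAX7 by 2.73 ± 0.31 (adjusted p = 1.84e-06), both calls kept in every omission of a library. MYOD1 cells, which gave sums in 4 libraries, did not pass against MYF5 cells (PAX3 -0.25, interval -0.98 to 0.48, and PAX7 -0.24, interval -0.91 to 0.44). MYOG cells were lower than MYOD1 cells for PAX3 (-1.58 ± 0.43, adjusted p = 0.0184) and for PAX7 (-1.36 ± 0.38, adjusted p = 0.0192), the first lost without E21-ZZ (-1.51) or E28-ZZ (-1.57), the second without E28-ZZ (-1.37) or E28-DZ (-1.13). The genes called were 12.6%, 2.05% and 12.3% of those tested in the 3 contrasts. Of the 9 tested dermomyotome and muscle genes, 4 were higher in MYF5 than in MEOX1-only cells. These were MSC (4.76 ± 0.38), FGFR4 (2.997 ± 0.38), CXCR4 (1.34 ± 0.22) and MET (1.61 ± 0.29), the receptor gene that migrating muscle precursors need. MEOX2 was lower (-1.45 ± 0.19), and the list median was 0.49 against -0.02 for all genes. The sclerotome genes PAX1 (-2.96 ± 0.21) and PAX9 (-2.67 ± 0.33) were lower in MYF5 cells. FGFR4, a receptor gene that PAX3 is known to bind, and EYA1 (1.05 ± 0.20), EYA2 (1.23 ± 0.37) and EYA4 (1.04 ± 0.20) were also higher in MYF5 cells. In MYOG against MYOD1 cells, where both members were lower, EYA2 (1.34 ± 0.41) and EYA4 (0.76 ± 0.20) were higher and EYA1 did not pass (-0.39 ± 0.30).

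The stage steps were also read within a state. In MYF5 cells PAX7 rose from E18 to E21 by 1.56 (edgeR adjusted p = 0.000173), while the step before it (2.29, adjusted p = 0.176) and the step after it (0.63, adjusted p = 0.0783) did not pass, and PAX3 from E18 to E21 gave -0.51 (interval -0.88 to -0.13, adjusted p = 0.101). In MEOX1-only cells PAX7 passed at no step, with 2.12 from E16 to E18, -0.0088 from E18 to E21 (interval -0.81 to 0.79) and -0.65 from E21 to E28, and PAX3 from E18 to E21 fell by 1.52 on the log2 scale (adjusted p = 0.0173). From E21 to E28 PAX3 fell in both states, with -0.96 in MYF5 cells (edgeR adjusted p = 0.0045) and -2.43 in MEOX1-only cells (adjusted p = 0.00937). The MEOX1-only fit called 1318 genes at that step, against 471 (3.77%) in the whole class. In MYF5 cells 819 genes were called from E18 to E21, against 1712 (13.7%). At the other steps the counts stayed within 1.5 times those of the whole class. The difference between the states was not tested, and these alternatives too were added later.

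In neural tube cells both members rose from E18 to E21. PAX3 stood at 24.7 (ZZ) and 28.7 (DZ) CPM at E16, then 41.6 and 39.3 at E18 and lastly 116 and 85.7 at E21, and PAX7 at 3.26 and 7.97, 6.12 and 9.41, and 48.8 and 51.6 CPM. In the 30 cells of E28-DZ, PAX3 stood at 42.8 CPM and PAX7 was not found, which allows up to 10.0% of cells with a UMI and sets no limit on cells that express it. The same cells held 3028 CPM of neuron markers, against a class median of 95.5, so that their label is uncertain. From E18 to E21 PAX3 rose by 1.24 ± 0.16 (edgeR adjusted p = 0.00033) and PAX7 by 2.67 ± 0.23 (adjusted p = 1.68e-05), and both calls held in every omission of a library but not in dorsal cells alone. From E16 to E18 neither passed (PAX3 0.43 ± 0.17, adjusted p = 0.185, and PAX7 0.24 ± 0.28, adjusted p = 0.708). The genes called were 21.1% from E18 to E21 and 4.74% from E16 to E18.

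Neural tube cells on the dorsal and the ventral side were set apart by other genes, dorsal ones by MSX1, LMX1A, ZIC1, WNT1, WNT3A, GDF7 or OLIG3 and ventral ones by NKX6-1, NKX6-2, NKX2-2, OLIG2, FOXA2 or SHH. At 2000 UMIs PAX3 was found in 21.1% ± 5.67 of dorsal and 0.40% ± 0.44 of ventral cells (SD, n = 6 libraries), and PAX7 in 7.06% ± 4.25 and 0.09% ± 0.11. Dorsal exceeded ventral cells in 6 of 6 libraries, for both genes (exact sign-flip permutation p = 0.0313, the smallest that 6 libraries allow, 0.0438 adjusted). PAX3 stood at 86.0 to 166 CPM in dorsal cells and at 0 to 7.55 CPM in ventral cells. Only PAX3 and PAX7 were compared in this way, so the share of all genes higher in dorsal cells in 6 of 6 libraries is not known.

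**Figure D4:**
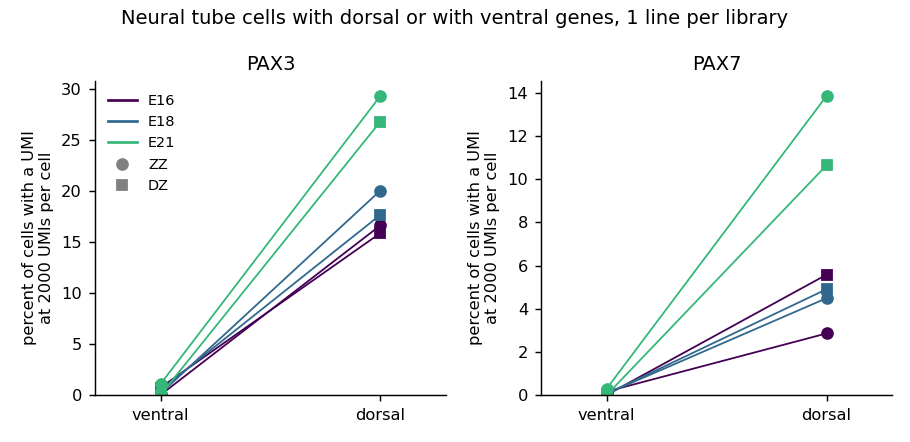
Percent of dorsal and of ventral neural tube cells with a UMI of PAX3 (left) or PAX7 (right) at 2000 UMIs per cell, 1 line per library. In each of the 6 libraries the dorsal value lies above the ventral one, for PAX3 by 15.2 to 28.3 percentage points.

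Neural tube cells with neither a dorsal nor a ventral gene made up 54.1% to 80.8% of the class in these 6 libraries. In them PAX3 stood at 37.5 (ZZ) and 45.0 (DZ) CPM at E18 and at 130 and 85.8 at E21, and PAX7 at 2.96 and 6.95 and at 55.7 and 57.8, so that the E21 values lay above those of E18 for both genes, which was not tested in these cells. The ventral share of neural tube cells was 20.1% to 29.7% in the E16 and E18 libraries and 8.14% to 13.7% at E21. Restricted to dorsal cells, the step from E18 to E21 was 0.59 for PAX3 (interval 0.14 to 1.05, edgeR adjusted p = 0.142) and 1.16 for PAX7 (interval 0.39 to 1.92, adjusted p = 0.0927), past the threshold for neither. In cells with PAX6 it was 1.23 and 2.60, both called. Of the genes of the dorsal neural tube, ZIC4 (2.55 ± 0.23) and ZIC1 (2.18 ± 0.35) rose from E18 to E21 and MSX1 fell (-1.04 ± 0.25), 3 of 5 tested (list median -0.38 against -0.01 for all genes). Of the ventral genes, DBX1 rose (1.88 ± 0.28) and 4 of 6 tested fell, with NKX6-1 (-1.53 ± 0.25), DBX2 (-1.43 ± 0.28) and FOXA2 (-1.32 ± 0.38) falling most (list median -1.22).

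The stage difference itself differed between muscle and neural tube for PAX3. E21 minus the mean of E16 and E18 was lower in muscle than in neural tube cells (difference of log2 changes -2.07 ± 0.14, edgeR adjusted p = 1.86e-07) in the fit blocked by library, and leaving out each of the 6 libraries gave -2.20 to -1.96. PAX7 did not pass, at -0.29 ± 0.24 (adjusted p = 0.50; interval -0.81 to 0.23), and the same omissions gave -0.77 to -0.099. The genes called were 14.1% of those tested. With MYF5 cells in place of all muscle cells the PAX3 value was -1.41, with MEOX1-only cells -2.99, and with dorsal cells in place of all neural tube cells -1.08. For PAX7 the direction turned with the cells taken, from -1.68 (edgeR adjusted p = 0.00179) with MEOX1-only cells to 1.40 (adjusted p = 0.00553) with dorsal cells. Of the dermomyotome and muscle genes 2 of 10 tested had a higher value in muscle than in neural tube, led by FGFR4 (7.32 ± 0.64), and 2 a lower one, led by CXCR4 (-4.04 ± 0.24), with a list median of 0.30. Of the crest genes 1 of 9 had a higher and 2 a lower value, led by EDNRB (-4.18 ± 0.34).

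In crest cells PAX3 stood at 30.8 (ZZ) and 55.0 (DZ) CPM at E16, then 94.4 and 73.9 at E18, then 56.6 and 32.8 at E21 and lastly 22.5 and 39.9 at E28, highest in both E18 libraries. PAX3 fell from E18 to E21 (-0.90 ± 0.25, edgeR adjusted p = 0.0177), a call lost without E18-ZZ (-0.64), E18-DZ (-1.15) or E21-DZ (-0.56), and also with DESeq2 (-0.92), with doublets kept (-0.75) and at a mitochondrial limit of 5% (-0.91). The step from E16 to E18 (0.78 ± 0.27, adjusted p = 0.157) and from E21 to E28 (-0.62 ± 0.34, adjusted p = 0.377) did not pass. With 1 library left out, they ran from 0.30 to 1.42 and from -1.09 to -0.15. Called were 1.86%, 18% and 4.59% of genes in the order of the steps. PAX7, with 69 UMIs in all crest cells, was too low for the filter and was not tested between crest stages. In the step from E18 to E21, TFAP2B fell (-1.07 ± 0.20) and EDNRB (2.33 ± 0.17) and NGFR (0.50 ± 0.16) rose, 3 of 9 crest genes tested (list median 0.21 against 0.02 for all genes).

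Whether the 2 members were found in the same cells was asked within libraries. Among muscle cells 680 held a UMI of both, of 1827 with PAX3 and 2449 with PAX7. At 2000 UMIs PAX7 was found in 16.5% ± 14.2 of PAX3-positive and 6.11% ± 5.37 of PAX3-negative muscle cells, a difference of 10.4 points that was positive in 8 of 8 libraries (exact sign-flip permutation p = 0.00781, the smallest that 8 libraries allow, 0.0438 adjusted). At E16 the differences were 0.92 (ZZ) and 0.91 (DZ) points and rested on few cells, with 3 and 8 muscle cells holding both genes before thinning. In neural tube cells the difference was 4.60 points, positive in the 6 libraries with a PAX7 UMI in these cells and 0 in E28-DZ, which had none (p = 0.0313 by the same exact permutation, 0.0438 adjusted). In crest cells it was 0.77 points (exact permutation p = 0.141), positive in the 4 E16 and E18 libraries, while the other 4 held 1 to 3 PAX7-positive crest cells each and none with both genes, so that they could not be positive. Within MYF5 cells the muscle difference was 5.64 points (exact permutation p = 0.0156) and within dorsal cells the neural tube difference was 1.81 points (exact permutation p = 0.0625).

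**Figure D5:**
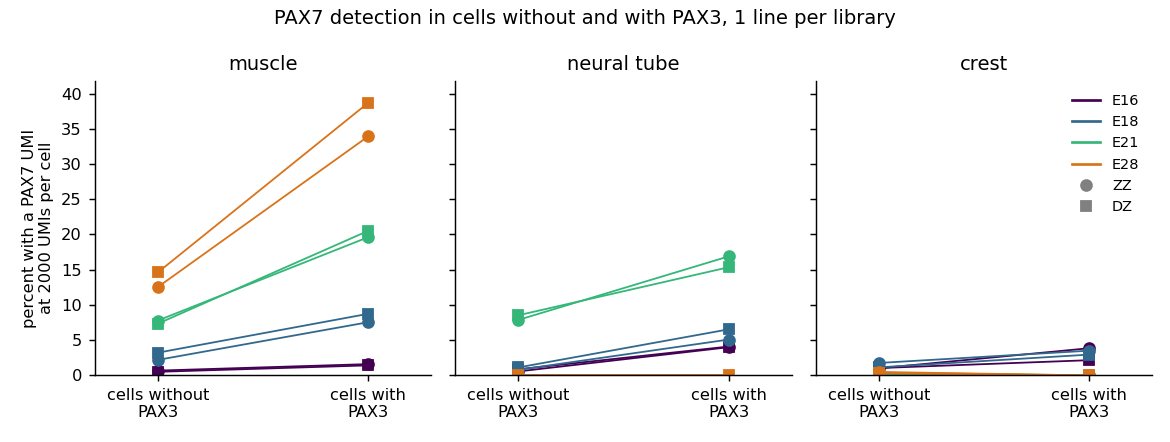
Percent of cells with a UMI of PAX7 among PAX3-positive and PAX3-negative cells at 2000 UMIs, 1 line per library, for muscle, neural tube and crest cells. Muscle lines rise in 8 of 8 libraries, and crest lines in 4 of 8, the other 4 having no crest cell with both genes.

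Breed was compared with the stage as a block. DZ minus ZZ gave -0.04 ± 0.15 for PAX3 and 0.28 ± 0.15 for PAX7 in muscle cells (intervals -0.38 to 0.30 and -0.07 to 0.62), -0.12 ± 0.14 and 0.49 ± 0.21 in neural tube cells (-0.42 to 0.19 and 0.03 to 0.94, the latter with an edgeR adjusted p of 0.557), and -0.08 ± 0.20 for PAX3 in crest cells (-0.49 to 0.34). None passed. In muscle edgeR called 0% of genes, with 803 at an unadjusted p under 0.05, and DESeq2 called 7. In neural tube 0.0356% and in crest 0.093% were called. With 1 library per stage and breed, a breed difference at a single stage has no replicate check.

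Of all PAX3 UMIs, 40.9% ± 16.7 (SD, n = 8 libraries) lay in muscle cells, 16.6% ± 12.0 in neural tube cells and 8.33% ± 4.25 in crest cells, and of PAX7 UMIs 47.1% ± 25.8, 14.8% ± 10.98 and 3.12% ± 3.21. Cells of no class, 48039 in all, averaged 64.6% of the cells of a library. Their mean share of a library's UMIs was 28.2% for each gene, with ranges of 14.9% to 38.3% for PAX3 and 12.8% to 49.1% for PAX7.

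Over 46 sums of a class in a library, and 12053 genes, the genes whose log2 CPM were most alike to PAX3 were PKNOX2 (Pearson r 0.80), ZCCHC17 (0.80), SPSB4 (0.79), CDK2AP1 (0.79) and KDM1A (0.76). Those most alike to PAX7 were PJA1 (0.76), PEG10 (0.75), ZRANB2 (0.75), FLNC (0.74) and GLI3 (0.74), and the members correlated with each other at 0.59. These values span classes: over the muscle sums alone CDK2AP1 stood at -0.81 and PKNOX2 at -0.053 with PAX3, whereas SPSB4 stood at 0.85, and the 5 genes named for PAX7 stood at 0.70 (ZRANB2) to 0.98 (PEG10). The sums of a library share its depth and cells, so these values are a description.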

How the data were processed

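Per the labels and the study's methods, 10x Chromium 3' v3 chemistry was used, and the authors deposited UMI counts made with Cell Ranger on Sscrofa11.1 (Ensembl annotation), neither normalized nor corrected. A barcode was kept if it held at least 200 genes and at most 30000 UMIs, of which at most 10% on 13 mitochondrial genes; removed next were the barcodes with the highest Scrublet scores (scanpy 1.11.5), at 0.8% per 1000 barcodes: 8247 were removed as doublets and 74147 of 90688 barcodes were kept. The study used DoubletFinder, which was not used here. Counts were summed per class and library, with at least 20 cells per sum. edgeR 4.0.16 (R 4.3.3; TMM, default filter on low counts, quasi-likelihood test, Benjamini-Hochberg adjustment at 0.05) was run over all genes, with DESeq2 1.42.0 as an alternative. The lineage, state and interaction fits had the library as a block, the stage fits the breed as covariate and the breed fits the stage as block. CPM are a gene's summed UMIs per 1000000 UMIs of the class. Detection at 2000 UMIs is the expected share after thinning. The permutation tests went through every arrangement of the libraries with numpy 2.4.6, and scipy 1.17.1 gave the binomial and Poisson intervals. The scripts were tested on simulated data. The members and all lists were chosen with earlier results of these data known. Named from each list are up to 4 genes with the largest absolute change among those that passed, and 5 genes most alike per member; a few genes outside this rule were named after their values were seen. The counts of a further list, and some of its genes and of the markers, are not reported here. Alternatives changed the normalization, filters, doublets, gates, depth and libraries. Depth limits the precision, mainly for PAX7 in crest cells.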

Additional observations from a re-analysis of the deposited data

Results flagged for a closer look

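One value was marked because an effect differed between lineages by a test of the difference itself: the PAX3 change from the mean of E16 and E18 to E21 differed between muscle and neural tube cells, muscle minus neural tube being -2.07 ± 0.14 (SE, log2; edgeR adjusted p = 1.86e-07). Among the 49 groups of 4 to 10 libraries looked at for a library far from the rest, 0 were marked.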

How the results depend on the processing

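Over 39 results and 703 alternatives, 590 kept their direction and their side of the threshold, 64 lost a call, 16 gained one and 33 turned in direction. For the 7 permutation results a call here means an unadjusted exact p under 0.05, since only their main values were adjusted. In 10 of the 39 results every alternative kept both. Called among these were MYF5 minus MEOX1-only cells for PAX3 and for PAX7, the PAX3 interaction and, by the unadjusted p, co-detection in muscle. The rest of them were never called. The causes of these changes were not tested, except where the number of libraries allowed no call: the smallest exact permutation p is 0.0625 for dorsal against ventral cells with 5 libraries, as in each omission, at the 5% limit and with 2 UMIs of the gate genes, and for neural tube co-detection in 6 of 7 omissions, where E28-DZ has a difference of 0, and 0.0667 for late against early libraries without E16 or E28. With DESeq2, PAX7 for crest minus neural tube was -1.30 and PAX3 in crest from E18 to E21 was -0.92, neither past the threshold, PAX3 in muscle from E21 to E28 was -0.89 and newly called, and PAX3 in crest for DZ minus ZZ was 0.032. Without a filter on low counts, PAX3 was newly called in muscle from E21 to E28 (-0.88) and in crest from E16 to E18 (0.81). Without the breed term, from E21 to E28 in muscle PAX7 (0.84) was no longer called and PAX3 (-0.90) was. With all doublets kept, PAX3 in muscle from E21 to E28 was -0.90 and called, PAX3 in crest from E18 to E21 was -0.75 and not called, and DZ minus ZZ for PAX3 was 0.017 in muscle and 0.045 in crest. At a mitochondrial limit of 5% calls were lost for PAX7 in crest minus neural tube (-1.25), PAX7 in muscle from E16 to E18 (2.39) and from E21 to E28 (0.80), PAX3 from E18 to E21 in muscle (-0.53) and crest (-0.91), co-detection in neural tube (5.20 points), and dorsal minus ventral detection of PAX3 (19.4) and PAX7 (7.50), while PAX3 DZ minus ZZ turned to 0.16 in muscle and 0.33 in crest and PAX7 in neural tube from E16 to E18 to -0.046. With cells of more than 1 class kept in each, PAX3 was -0.17 for muscle minus neural tube and 0.042 for DZ minus ZZ in crest, and co-detection in crest was 1.66 points and called. With at least 2 UMIs of the gate genes, PAX3 was -0.39 for crest minus muscle, -0.95 in muscle from E21 to E28 and 1.23 in crest from E16 to E18, the last 2 newly called, and dorsal minus ventral detection was 20.7 points for PAX3 and 7.01 for PAX7, where no call was possible. PAX7 detection in muscle, late minus early, was 6.42 points without the E28 and 8.14 without the E16 libraries, where no call was possible, and that of PAX3 was -11.2 without thinning, which passed but is not free of depth.

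The alternatives added after the data were seen changed more. With MYF5 cells for muscle, PAX7 was 2.29 from E16 to E18 and 0.63 from E21 to E28 and PAX3 -0.51 from E18 to E21, none called, PAX3 was -0.96 from E21 to E28 and called, muscle minus neural tube was 1.90 for PAX7 and 0.88 for PAX3 and called, and crest minus muscle was -0.67 for PAX3. With MEOX1-only cells, PAX7 was 2.12, -0.0088 and -0.65 over the 3 steps and not called, PAX3 -2.43 from E21 to E28 and called, the PAX7 interaction -1.68 and called, muscle minus neural tube -0.44 for PAX7 and -0.45 for PAX3, crest minus muscle -1.20 for PAX7 and not called, and late minus early detection -6.75 points for PAX3, called, and 0.89 for PAX7, not called. With dorsal cells for neural tube, PAX3 was -0.037 from E16 to E18 and 0.59 from E18 to E21, PAX7 1.16 from E18 to E21, none called, the PAX7 interaction 1.40, muscle minus neural tube -0.53 for PAX7 and -0.98 for PAX3, crest minus neural tube -0.89 for PAX3, and co-detection 1.81 points, not called.

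Leaving out 1 library at a time, for the results that changed side or direction, gave the following ranges. PAX3 ran from -0.061 to 0.46 for muscle minus neural tube, from -0.022 to 0.15 for crest minus muscle, from -1.04 to -0.54 in muscle from E18 to E21, from -1.13 to -0.63 in muscle from E21 to E28 (once called), from -1.38 to -0.56 in crest from E18 to E21 and from -1.67 to -1.51 for MYOG minus MYOD1 cells. Its DZ minus ZZ ran from -0.17 to 0.092 in muscle, from -0.23 to 0.0060 in neural tube and from -0.30 to 0.14 in crest. PAX7 ran from -2.51 to -1.40 for crest minus neural tube, from 2.02 to 2.78, from 0.89 to 1.64 and from 0.65 to 1.04 over the 3 steps in muscle, from -0.044 to 0.89 in neural tube from E16 to E18 and from -1.54 to -1.13 for MYOG minus MYOD1 cells. Co-detection in neural tube ran from 3.87 to 5.37 points and dorsal minus ventral detection from 19.1 to 21.8 points for PAX3 and from 5.64 to 7.81 for PAX7. Without 1 library the counts of called genes ran, over the steps in order, from 5 to 401, 375 to 2173 and 184 to 764 in muscle, from 256 to 1478 and 1412 to 2914 in neural tube and from 35 to 290, 616 to 1932 and 165 to 456 in crest, from 792 to 1501, 55 to 276 and 406 to 1538 over the states (1407, 228 and 1367 with all libraries), and from 964 to 1523 for the interaction. Under the other alternatives they moved by more than 1.5 times as follows. From E16 to E18 in muscle 93 became 358 with DESeq2, 390 without the filter, 7 at the 5% limit and 163 with 2 UMIs of the gate genes, in neural tube 590 became 113, 1229, 372 and 388 in that order, 351 in PAX6 cells and 65 in dorsal cells, and in crest 176 became 51 with DESeq2 and 380 without the filter. From E18 to E21 in muscle 1712 became 819 in MYF5 cells, in neural tube 2628 became 694 with DESeq2 and 368 in dorsal cells, and in crest 1701 became 677 with DESeq2 and 377 at the 5% limit. From E21 to E28 in muscle 471 became 758 without the filter and 1318 in MEOX1-only cells, and in crest 435 became 157 with DESeq2, 687 without the filter, 164 at the 5% limit and 250 with 2 UMIs. The interaction count of 1758 became 801 with DESeq2, 1133 at the 5% limit, 1063 in MYF5 cells and 721 in dorsal cells. At the 5% limit crest minus neural tube went from 2943 to 1637 and crest minus muscle from 2282 to 1008, muscle minus neural tube went from 3108 to 2000 with dorsal cells, and with 2 UMIs MYOD1 minus MYF5 cells fell from 228 by a factor just over 1.5. Between breeds the counts ran from 0 to 11 in muscle, from 1 to 66 in crest beside 0 at the 5% limit, and from 2 to 127 in neural tube. The 69 PAX7 UMIs of crest cells and the 13 and 30 neural tube cells of the E28 libraries limit what depth can show there.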
